A study of Mus musculus with 4 samples.

Results

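The genes described here encode the MCM helicase, the motor that unwinds DNA at replication forks, and the proteins that load and start it. The list held 10 genes: the helicase subunits Mcm2 to Mcm7, the loading factors Cdt1 and Cdc6, and the activation factors Mcm10 and Cdc45. Each was measured by a probe set that carried only that gene's symbol, and 9 of the 10 had one, out of 19505 genes on the array. Mcm7 had none, so no value is given for it. None of the 9 had more than 1 such probe set.

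In cells leaving quiescence, the origin recognition complex marks replication origins, and Cdc6 and Cdt1 then place the hexamer of Mcm2 to Mcm7 on the DNA, a step called licensing. Later, Cdc45 and the GINS complex join the hexamer to form the active helicase, with Mcm10 needed for its activation. Quiescent hepatocytes keep these genes low, and after loss of liver tissue they re-enter the cell cycle and express them ahead of DNA synthesis.

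Liver RNA was hybridised to 4 arrays, 1 for each group, and the series text states pools of 4 animals. Male C57BL6J mice aged 10 to 12 weeks with floxed Mcu alleles, which encode the pore of the mitochondrial calcium uniporter, were given AAV8 virus. In the knockdown (KD) it carried AAV8-TBG-Cre, whose TBG promoter directs Cre to hepatocytes, and in the control littermates AAV8-TBG-Null. The groups were KD liver 30 h after 70% partial hepatectomy, control (WT) liver at 30 h, KD liver at 0 h and WT liver at 0 h, with the operation 5 weeks after the virus. The WT arrays carry the genotype label Wild type. In the KD arrays the genotype entry names a floxed gene other than the Mcu of the treatment protocol. The description of the KD 30 h array gives 1 h where its title gives 30 h. The description field also speaks of ethanol feeding, which no other label mentions. Mcu itself read 2.63 in KD and 4.30 in WT liver at 30 h, and 2.83 in KD and 4.77 in WT liver at 0 h, lower in KD at both times, though whether its probes lie in the deleted part is not known here. All levels are log2 values and a difference of 1 is 2-fold. There were no replicates, so no level or difference carries an error, and no test was possible. No group was operated on without removal of liver, so loss of liver, the operation and the hour of sampling cannot be told apart in the 30 h values. In whole liver, fewer cells expressing a gene and less RNA per cell cannot be told apart either.

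The promoters of 5 measured members that were higher at 30 h are shown because each holds a consensus E2F site, and that of Mcm10 is shown because its level differed little between the arrays. E2F proteins include the transcription factors that switch on replication genes as cells enter S phase. The stretches cover 250 bases before and 50 bases from the annotated start, from RefSeq on GRCm38.p6, and capitals mark any of the 4 forms TTTCCCGC, TTTGGCGC, TTTCGCGC and TTTGCCGC on either strand.
Mcm3, chr1:20820263-20820562, minus strand: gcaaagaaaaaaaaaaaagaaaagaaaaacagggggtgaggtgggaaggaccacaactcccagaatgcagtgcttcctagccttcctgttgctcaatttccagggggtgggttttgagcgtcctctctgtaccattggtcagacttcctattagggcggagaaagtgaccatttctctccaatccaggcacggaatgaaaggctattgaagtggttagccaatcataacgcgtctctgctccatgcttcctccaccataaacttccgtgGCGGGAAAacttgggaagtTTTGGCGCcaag
Mcm5, chr8:75109259-75109558, plus strand: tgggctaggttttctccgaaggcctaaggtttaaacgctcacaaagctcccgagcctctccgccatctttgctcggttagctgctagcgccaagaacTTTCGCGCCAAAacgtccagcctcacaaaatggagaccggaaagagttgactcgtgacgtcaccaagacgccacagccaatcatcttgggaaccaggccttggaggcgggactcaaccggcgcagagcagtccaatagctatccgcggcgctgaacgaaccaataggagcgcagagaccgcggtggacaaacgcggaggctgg
Mcm6, chr1:128359656-128359955, minus strand: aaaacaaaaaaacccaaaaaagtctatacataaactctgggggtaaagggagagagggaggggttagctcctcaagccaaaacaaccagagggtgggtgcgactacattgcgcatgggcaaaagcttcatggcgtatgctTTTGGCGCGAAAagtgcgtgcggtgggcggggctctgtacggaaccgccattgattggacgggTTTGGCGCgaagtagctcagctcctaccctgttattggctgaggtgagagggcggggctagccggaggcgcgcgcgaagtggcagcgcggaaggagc
Cdt1, chr8:122567765-122568064, plus strand: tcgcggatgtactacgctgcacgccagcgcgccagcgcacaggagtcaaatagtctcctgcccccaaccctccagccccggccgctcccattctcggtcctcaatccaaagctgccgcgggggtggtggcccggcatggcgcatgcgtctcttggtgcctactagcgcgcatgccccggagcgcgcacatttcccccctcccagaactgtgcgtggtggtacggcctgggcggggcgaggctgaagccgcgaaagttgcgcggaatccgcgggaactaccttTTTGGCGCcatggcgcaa
Cdc6, chr11:98907901-98908200, plus strand: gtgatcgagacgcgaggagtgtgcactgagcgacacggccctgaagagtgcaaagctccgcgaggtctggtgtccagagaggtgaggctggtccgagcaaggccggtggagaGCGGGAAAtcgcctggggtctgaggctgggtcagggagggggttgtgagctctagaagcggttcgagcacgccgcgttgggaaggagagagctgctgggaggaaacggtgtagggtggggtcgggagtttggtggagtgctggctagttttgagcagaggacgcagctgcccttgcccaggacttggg
Mcm10, chr2:5012742-5013041, minus strand: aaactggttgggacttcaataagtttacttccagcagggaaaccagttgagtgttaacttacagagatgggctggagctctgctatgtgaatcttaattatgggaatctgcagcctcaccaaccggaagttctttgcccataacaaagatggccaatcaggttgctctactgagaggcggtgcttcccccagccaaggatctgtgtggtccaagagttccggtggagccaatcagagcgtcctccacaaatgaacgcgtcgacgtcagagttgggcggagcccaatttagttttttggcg

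Of the 9 members with a promoter entry, 6 held such a site: Mcm3, Mcm5, Mcm6, Cdt1, Cdc6 and the unmeasured Mcm7, in 1 of its 2 entries. Mcm4 had no entry. Positions are of a site's first base on the gene's strand, relative to the start. Mcm6 held 3 sites, at -110, -106 and -47, of which the first 2 overlap on opposite strands. In Mcm5 the 2 sites, at -153 and -149, overlap likewise, and the site of Cdc6 was at -138. Those of Mcm3 (at 20 and 39) and Cdt1 (at 33) lay after the start. Across all 32851 promoter entries of this length 2.26% held a site, and among bright array genes with an entry 4.27% did. No site of these forms was in the windows of Mcm2, Mcm10 or Cdc45, although Mcm2 and Cdc45 were more than 2-fold higher at 30 h in both genotypes. The Mcm10 window ends in tttggcg, all but the last letter of TTTGGCGC, and the next base was not read. Whether a site crosses the edge of that window is thus not known here. A letter match is a description and does not show that a factor binds there.

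Of the 9 measured members, 8 were at least 2-fold higher at 30 h than at 0 h in both genotypes. In WT liver 5.98% of the 9759 bright genes, and 4.19% of all genes, were at least 2-fold higher. A gene counts as bright here if its average log2 level reached 3.83, the median of these averages. In KD liver the shares were 2.64% and 2.72%. The median member difference was 1.57 in KD liver and 3.19 in WT liver, against -0.04 and 0.10 over the bright genes. Mcm3 and Cdc6, 2 of the 9 members, were not bright. In WT liver at 0 h every measured member except Mcm10 read below 3.83, among them Mcm4 (2.51), Mcm6 (2.67) and Cdt1 (2.77). Array signals flatten near the background, so folds against such dim levels, and ranks by them, are imprecise and may be understated.

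**Figure D1:**
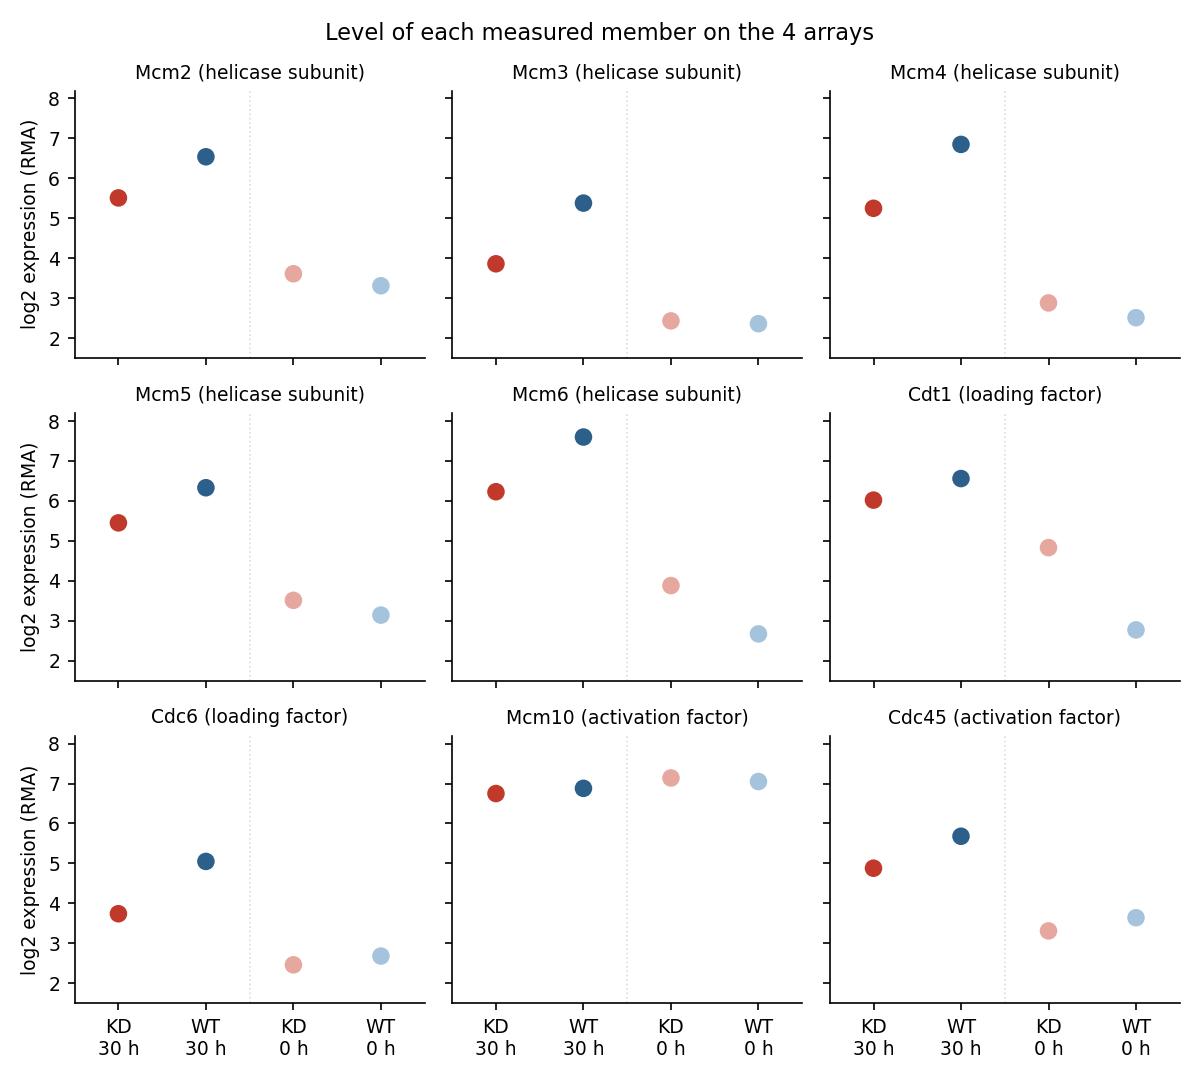
Log2 expression of the 9 measured members on the 4 arrays, 1 panel a gene and 1 point an array, with KD and WT at 30 h left of the dotted line and KD and WT at 0 h right of it; the axis starts at 1.5. In 8 panels the WT 30 h point is the highest and the KD 30 h point the next, while Mcm10 stays between 6.75 and 7.14.

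The 5 measured helicase subunits shared 1 order of arrays: WT at 30 h highest, then KD at 30 h, KD at 0 h and WT at 0 h. Mcm2 read 5.51 in KD and 6.54 in WT liver at 30 h, and 3.61 in KD and 3.31 in WT liver at 0 h. Mcm5 read 5.45 in KD and 6.33 in WT liver at 30 h, and 3.51 in KD and 3.14 in WT liver at 0 h. After each gene was centred on its own mean, the profiles of Mcm2 and Mcm5 differed by at most 0.08 on any array, the smallest such gap among the pairs of members. Mcm3, with lower signals, read 3.86 in KD and 5.38 in WT liver at 30 h, and 2.43 in KD and 2.36 in WT liver at 0 h.

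Mcm4 and Mcm6 had the largest differences between the times. Mcm6 read 6.23 in KD and 7.60 in WT liver at 30 h, and 3.88 in KD and 2.67 in WT liver at 0 h. It was 5.10-fold higher at 30 h in KD liver and 30.5-fold higher in WT liver, ranking the 24th and the 3rd highest of all genes. Mcm4 read 5.25 in KD and 6.85 in WT liver at 30 h, and 2.88 in KD and 2.51 in WT liver at 0 h, which is 5.17-fold higher at 30 h in KD liver and 20.3-fold higher in WT liver. For Mcm2, Mcm3 and Mcm5 the folds were 3.73, 2.69 and 3.84 in KD liver and 9.38, 8.11 and 9.13 in WT liver.

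The loading factors had unlike KD minus WT differences at 0 h. Cdt1, which brings the hexamer to the origin, read 6.02 in KD and 6.56 in WT liver at 30 h, and 4.83 in KD and 2.77 in WT liver at 0 h. Its partner Cdc6, an ATPase of the loading machine, read 3.74 in KD and 5.05 in WT liver at 30 h, and 2.46 in KD and 2.68 in WT liver at 0 h. Cdt1 was thus well above its WT level in KD liver before surgery, and Cdc6 was not. At 30 h against 0 h, Cdt1 was 2.28-fold higher in KD liver and 13.8-fold higher in WT liver, and Cdc6 2.43-fold and 5.17-fold higher.

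Of the activation factors, 1 was higher at 30 h and the other was not. Cdc45, which completes the active helicase, read 4.88 in KD and 5.68 in WT liver at 30 h, and 3.31 in KD and 3.64 in WT liver at 0 h. It was 2.97-fold higher at 30 h in KD liver and 4.11-fold higher in WT liver. Its annotated span overlaps Ufd1 and a long noncoding RNA gene in GRCm38.p6, and Ufd1 itself read between 5.09 and 5.33 on the 4 arrays. Mcm10 was the only measured member without a higher level at 30 h, reading 6.75 in KD and 6.88 in WT liver at 30 h, and 7.14 in KD and 7.05 in WT liver at 0 h. The differences of Mcm10 between times were -0.39 in KD liver and -0.17 in WT liver. In WT liver at 0 h Mcm10, unlike the other measured members, was already among the brighter genes, at percentile 93. In KD liver at 0 h it was at percentile 93.1, with Cdt1 at 67.9 and Mcm6 at 50.9. The Mcm10 values rest on 1 probe set, and whether that probe set reports Mcm10 RNA was not tested.

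**Figure D2:**
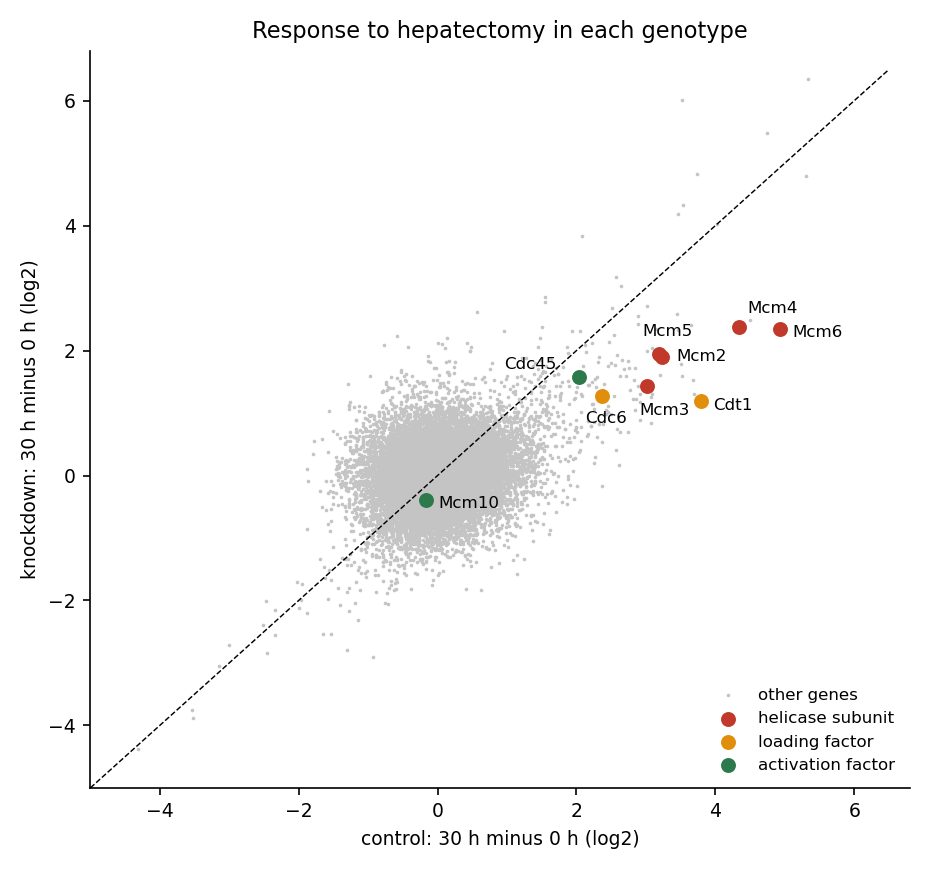
Difference between 30 h and 0 h (log2) in WT liver on the x axis and in KD liver on the y axis, for all 19505 genes (grey) and the 9 measured members coloured by role; the dashed line marks equal differences. All members lie below the line, Mcm6 and Cdt1 by 2.58 and 2.60, and Mcm10, which crosses it under cyclic loess or quantile normalization, lies among the bulk of the genes.

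At 30 h all 9 measured members read lower in KD than in WT liver (Mcm10 only as deposited, turning to 0.05 and 0.07 after cyclic loess and quantile normalization), 5 of them at least 2-fold, against 2.16% of bright genes and 1.86% of all genes. Of the 9759 bright genes, 5973 read lower in KD liver at 30 h. The median difference of the members was -1.03, against -0.11 over bright genes. Mcm4 was lowest at -1.60 (33.0% of the WT level), followed by Mcm3 at -1.52 (34.9%), Mcm6 at -1.37 (38.7%), Cdc6 at -1.31 (40.3%) and Mcm2 at -1.03 (49.0%). Mcm5 (-0.88), Cdc45 (-0.80), Cdt1 (-0.54) and Mcm10 (-0.13) differed by less than 2-fold. After cyclic loess or quantile normalization of the arrays, Mcm2 was no longer 2-fold lower (-0.99 and -0.85).

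At 0 h the members showed no common shift of that size. Cdt1 and Mcm6, 2 of the 9, were at least 2-fold higher in KD than in WT liver, against 1.25% of bright genes and 1.45% of all genes. Cdt1 was 4.17-fold higher (2.06), the 3rd highest of all genes, and Mcm6 2.31-fold higher (1.21), the 100th, both against dim WT levels (2.77 and 2.67) on 1 array. The other 4 measured helicase subunits differed by 0.07 to 0.37, Mcm10 by 0.09, Cdc6 by -0.22 and Cdc45 by -0.33. The median over the 9 was 0.30, against 0.06 over bright genes.

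**Figure D3:**
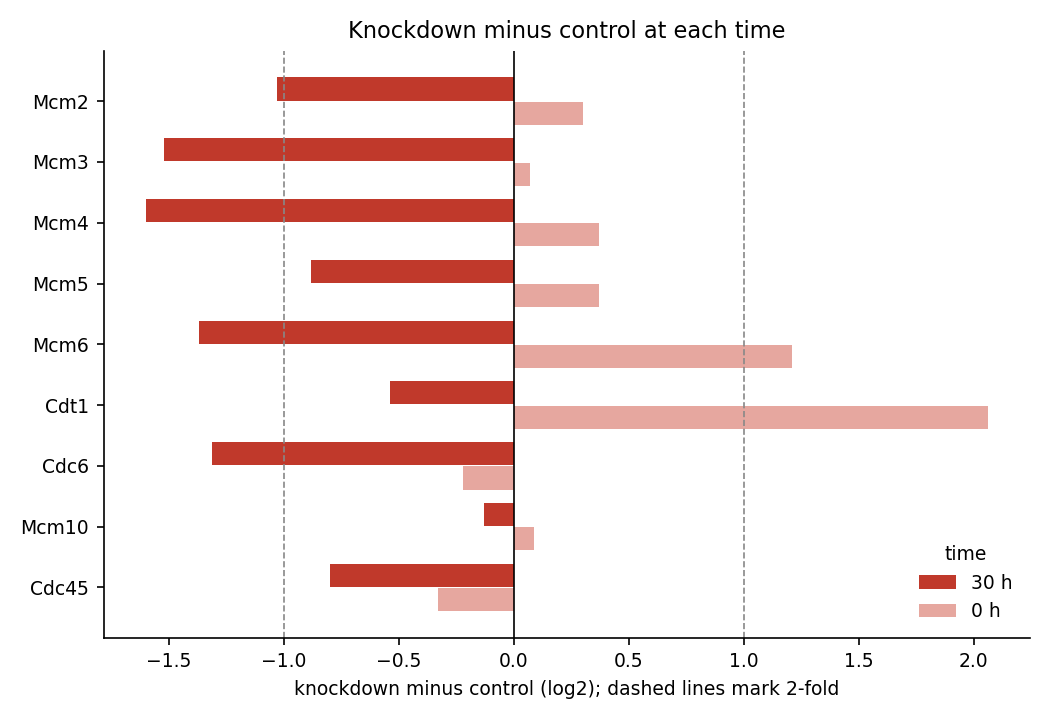
KD minus WT (log2) for each measured member at 30 h (dark bars) and 0 h (pale bars), with dashed lines at 2-fold. The 30 h bars all point below 0, from -0.13 (Mcm10, which turns sign under cyclic loess or quantile normalization) to -1.60, while the 0 h bars run from -0.33 to 2.06 with Cdt1 and Mcm6 beyond 2-fold.

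The difference between the KD and WT responses is the 30 h difference minus the 0 h difference, so it uses all 4 arrays, shares each with the other comparisons and is not independent of the values above. It was below 0 for all 9 members (Mcm10 turned to 0.06 and 0.04 after cyclic loess and quantile normalization) and at least 2-fold below for 7, against 7.43% of bright genes and 5.82% of all genes, with a median of -1.33 against -0.18. Over the bright genes, 6167 of 9759 were below 0. Cdt1 (-2.60) and Mcm6 (-2.58) ranked the 2nd and the 4th lowest of all genes. The sources of these values differed among members. The 0 h difference made up 79.2% of the value of Cdt1 and 46.9% of that of Mcm6, but 4.40% of that of Mcm3, 18.8% for Mcm4, 22.6% for Mcm2 and 29.6% for Mcm5. For Cdc6 (-1.09) and Cdc45 (-0.47), KD liver was already lower at 0 h, and the response differed by less than the level at 30 h did.

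Other genes that act at origins were counted in lists chosen beside the members. The origin recognition complex, the platform for loading, had 5 of 6 genes measured. Of these, 0 were at least 2-fold higher at 30 h in KD liver and 2 were in WT liver. The shares of bright genes were 2.64% and 5.98%, and those of all genes 2.72% and 4.19%. Orc6 read 4.25 in KD and 5.61 in WT liver at 30 h, and 4.18 in KD and 3.97 in WT liver at 0 h. Orc1, the subunit whose level follows the cell cycle, differed between times by 0.05 in KD liver and 1.27 in WT liver. Orc2, unlike these, read higher in KD than in WT liver at 30 h (0.21).

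At 30 h 5973 of the 9759 bright genes read lower in KD than in WT liver. So did all 4 GINS genes, whose products complete the active helicase with Cdc45, with a median of -0.83. Gins1 was lowest at -1.79, reading 3.10 in KD and 4.89 in WT liver, and Gins2 (-0.86) and Gins4 (-0.80) followed. Between 30 h and 0 h, 0 of the 4 were at least 2-fold higher in KD liver and 3 were in WT liver. The shares of bright genes were 2.64% and 5.98%. Among 11 origin firing factors, 9 read lower in KD liver at 30 h, 2 of them at least 2-fold, against 2.16% of bright genes. The 2 were Dbf4, the activating subunit of the kinase that phosphorylates the loaded helicase (-1.22), and Topbp1, a scaffold for assembly of the active helicase (-1.03). Topbp1 read 5.12 in KD and 6.15 in WT liver at 30 h, and 4.23 in KD and 3.23 in WT liver at 0 h, the same order of arrays as the helicase subunits.

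Licensing is restrained by geminin, which binds Cdt1, and by the ubiquitin ligases that destroy Cdt1 in S phase. A list of 8 genes held geminin, parts of these ligases, the S phase cyclin gene Ccna2 and Fzr1, an activator of the ligase that destroys geminin. Of the 8, 2 were at least 2-fold higher at 30 h in KD liver (Dtl and Ccna2) and 3 in WT liver (Dtl, Ccna2 and Skp2). Over bright genes the shares were 2.64% and 5.98%. Dtl, the substrate receptor that hands Cdt1 to its ligase, read 4.21 in KD and 5.52 in WT liver at 30 h, and 1.87 in KD and 2.37 in WT liver at 0 h. Unlike Cdt1 it read lower in KD liver at 0 h (-0.50). The scaffolds of that ligase were also lower at 30 h, Cul4a reading 4.86 in KD and 5.90 in WT liver and Cul4b 5.17 in KD and 6.17 in WT liver. At 0 h Cul4a read 5.48 in KD and 5.63 in WT liver. Cul4b was already lower in KD liver at 0 h, reading 5.59 in KD and 6.34 in WT liver (-0.75). Gmnn, the geminin gene, named after its values were seen, read 3.39 in KD and 3.24 in WT liver at 30 h, and 2.77 in KD and 2.98 in WT liver at 0 h.

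**Figure D4:**
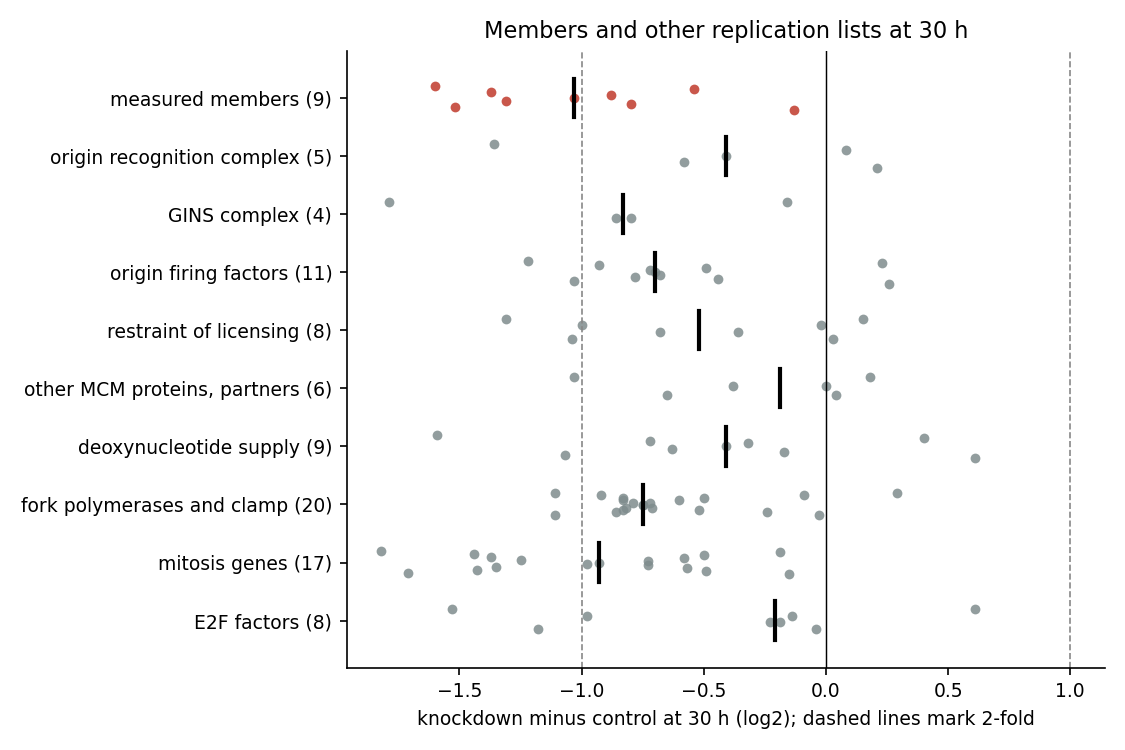
KD minus WT at 30 h (log2) for the measured members (red) and for 9 lists of other genes (grey), 1 point a gene, with the number of genes in brackets, a black bar at each median and dashed lines at 2-fold. The members' median is -1.03, that of the mitosis genes -0.93 and that of the fork polymerases and clamp -0.75.

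The members were set beside 3 lists of the same cell cycle program, as a description and with no test of the differences between lists. At 30 h the median KD minus WT difference was -0.41 over 9 deoxynucleotide supply genes, -0.75 over 20 fork polymerase and clamp genes and -0.93 over 17 mitosis genes. The numbers at least 2-fold lower were 2, 2 and 7, which is 22.2%, 10% and 41.2% of the lists. Over bright genes the share was 2.16%, and over all genes 1.86%. At 0 h these lists had medians of -0.18, 0.03 and -0.28. In WT liver their medians between 30 h and 0 h were 0.62, 1.16 and 1.69, each below the 3.19 of the members. In KD liver they were 0.34, 0.41 and 0.84, against 1.57 for the members. Single genes in WT liver ran from -0.56 to 3.69, from -0.22 to 3.01 and from 0.79 to 2.74. The highest deoxynucleotide supply and fork genes thus came near or above the members' median. Of the 8 E2F factors, 0 were at least 2-fold higher at 30 h in KD liver and 3 in WT liver, against 2.64% and 5.98% of bright genes. E2f8, E2f1 and E2f2 were the 3, and their KD minus WT differences at 30 h were -1.53, -1.18 and -0.98. E2f7, named after its values were seen, differed by 0.61 the other way.

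**Figure D5:**
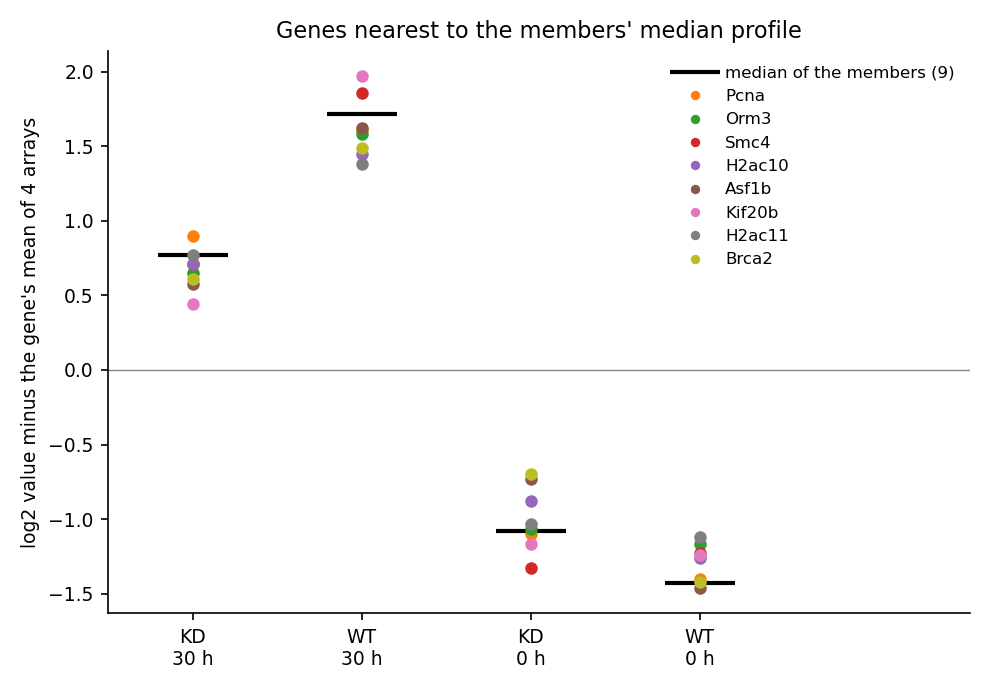
Log2 value minus the gene's own mean over the 4 arrays, for the median of the 9 measured members (black dashes) and the 8 nearest other bright genes (coloured points), by array. Pcna lies within 0.13 of the median on each array.

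The genes whose pattern lay nearest to the members' median profile were ranked by Euclidean distance of centred log2 values over the 4 arrays, among the 9469 bright genes left without the members and predicted genes (symbols of Gm and digits, or ending in Rik). Pcna, the sliding clamp of the replication fork, was nearest at a distance of 0.18. It read 9.13 in KD and 9.84 in WT liver at 30 h, and 7.13 in KD and 6.83 in WT liver at 0 h. Next came Orm3 (0.32), an orosomucoid of the acute phase, the condensin subunit Smc4 (0.36), the histone gene H2ac10 (0.38), the histone chaperone Asf1b (0.41), the kinesin Kif20b (0.46), H2ac11 (0.47) and the recombination gene Brca2 (0.47). H2ac10, H2ac11 and Orm3 have close paralogs whose transcripts may share probes. Of the members themselves, Mcm2 and Mcm5 lay at 0.09 and Mcm10 at 2.85.

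Markers of other cells moved on the same arrays. The 6 hepatocyte markers read between 10.5 and 12.7 throughout, with a median KD minus WT difference of 0.06 at 30 h (-0.01 after median centring) and 0.17 at 0 h. Of the 9759 bright genes, 5973 were lower in KD than in WT liver at 30 h and 5536 were higher at 0 h. All 8 Kupffer cell markers were lower in KD than in WT liver at 30 h (median -0.28) and higher at 0 h (0.47). Their summed linear signal was 491 in KD and 603 in WT liver at 30 h, and 495 in KD and 343 in WT liver at 0 h. Of 7 sinusoidal endothelial markers, 5 were lower in KD liver at 30 h, not far from the share of bright genes. Their median at 30 h was -0.57, the lowest of the 8 marker lists, against -0.11 over bright genes. It was -0.41 after cyclic loess and -0.44 after quantile normalization. Their sums were 170 in KD and 219 in WT liver at 30 h, and 295 in KD and 261 in WT liver at 0 h. The 5 measured lymphocyte markers had a median of -0.06 at 30 h and sums of 51.4 to 59.3. Stellate, cholangiocyte, neutrophil and erythroid markers had medians of -0.04, 0.04, 0.12 and 0.33 at 30 h, and the signs for stellate, cholangiocyte and neutrophil markers turned under cyclic loess (0.08, -0.11 and -0.03). No marker is at 0 on this scale, the lowest reading 1.88. The part of these cells in the members' differences was not tested.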

How the data were processed

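Total liver RNA was profiled on 4 whole-transcript arrays. The authors deposited a log2 level for each probe set. The submitters' processing notes name RMA and Affymetrix Expression Console, with no version or parameters. RMA equalises the arrays, so a shift of all genes would not show. The table holds 22206 probe sets with values rounded to 2 decimals and array medians from 3.75 to 3.84, and arrays correlated across probe sets with r from 0.953 to 0.974. The platform annotation gives 1 symbol to 19572 probe sets and no single symbol to the other 2634, and symbols were updated through the gene ID to GRCm38.p6. For each gene the brightest probe set by mean was used. The number of arrays limits the precision. Arrays were grouped by title, and the labels' description field also speaks of ethanol feeding, which no other label mentions.

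The 5 comparisons were differences of log2 values, counted at 2-fold, with no test because each group has 1 array. The named genes are the members, Mcu, up to 3 genes with the largest differences per list and comparison, which may then be given values in the others, and the 8 nearest genes. Members and lists were chosen with earlier results of these data known. Alternatives were other filters, folds of 1.5 and 3, averaged probe sets, centring on array medians, and quantile or cyclic loess normalization (limma 3.58.1, R 4.3.3; Python 3.11.15, pandas 2.3.3).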

Additional observations from a re-analysis of the deposited data

Results flagged for a closer look

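Of the 9 measured members, 7 had KD minus WT differences of opposite sign at 30 h and at 0 h, below 0 at 30 h and above 0 at 0 h. The difference between the times was -2.60 for Cdt1, -2.58 for Mcm6, -1.97 for Mcm4, -1.59 for Mcm3, -1.33 for Mcm2, -1.25 for Mcm5 and -0.22 for Mcm10. Each rests on 1 array per group and was not tested. The sign of Mcm10 turned under cyclic loess and quantile normalization, and the 0 h difference of Mcm3 was 0.07. Among the 9759 bright genes, 5973 read lower in KD than in WT liver at 30 h and 5536 read higher at 0 h. How many bright genes did both was not counted. All 8 Kupffer cell markers also read lower in KD liver at 30 h and higher at 0 h.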

How the results depend on the processing

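No paired analysis was possible because each group has 1 array. The counts of members past 2-fold were recomputed under 8 alternatives, and 71 of 80 values stayed within 1.5 times of the reported count. That share overstates how far the counts were put to the test. The counts in the direction opposite to those reported were 0 in every setting. Dropping the filter on dim genes and averaging probe sets could change no count, because all members were already counted and each had 1 probe set. With a 3-fold threshold, 4 members were higher at 30 h in KD liver, 1 was higher in KD than in WT liver at 0 h, 1 was lower in KD than in WT liver at 30 h, and 4 had a lower KD response. With genes at or above percentile 75 only, Mcm10 was the single member left, so these 4 counts and that of members higher at 30 h in WT liver were 0, and the median differences between times were -0.39 in KD liver and -0.17 in WT liver. Under the other alternatives the medians over the members ran from 1.54 to 1.58 (KD, 30 h minus 0 h), 3.08 to 3.20 (WT), 0.27 to 0.31 (KD minus WT, 0 h), -1.09 to -0.85 (30 h) and -1.37 to -1.16 (responses). Cyclic loess moved the median response difference of bright genes from -0.18 to -0.03, and quantile normalization their median WT difference between times from 0.10 to -0.03. Signal near background limits the 0 h levels of most members.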

Other observations

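Of 6 measured relatives and partners of the helicase outside the replicative hexamer, 0 were at least 2-fold higher at 30 h than at 0 h in KD liver and 1 (Mcmdc2) was in WT liver. Over all genes the shares were 2.72% and 4.19%, and over bright genes 2.64% and 5.98%. Mcm8, whose product works in recombination, read 4.37 in KD and 4.75 in WT liver at 30 h, and 3.66 in KD and 4.07 in WT liver at 0 h. Its difference between times was 0.71 in KD liver and 0.68 in WT liver. Its partner Mcm9 read between 1.96 and 2.42 on the 4 arrays. Mcmbp, which binds the MCM proteins, read between 5.85 and 5.98. Mcm9 and Mcmbp were named after their values were seen. Mcmdc2, a meiotic relative, read 1.99 in KD and 3.02 in WT liver at 30 h, and 2.40 in KD and 1.87 in WT liver at 0 h, all dim values.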
